A study of Homo sapiens with 6 samples.

Results

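Nonsense-mediated decay (NMD) transcripts were examined in the human osteosarcoma line U-2 OS, in 3 RNA-seq libraries of untreated cells and 3 of cells given ionizing radiation (IR, 4 Gy, 24 h). Members were all transcripts of the deposited files whose type in the GENCODE annotation is nonsense_mediated_decay, which gave 18300 of 158591 annotated transcripts, in 7523 of 21447 genes. Of these genes, 7233 also had protein_coding transcripts. The labels give polyA RNA prepared with an mRNA kit, whereas the study's methods give a total RNA kit, and which was used decides how far unspliced and incomplete RNA enters the libraries. The study's methods describe the 3 libraries of a group as independent samples, but neither they nor the labels say whether each came from its own culture, and p-values measure the spread between these libraries. The authors' estimated counts totalled 18573309 to 22953834 in 5 libraries and 45308792 in IR replicate 3. Among genes of cell identity, VIM lay between 1465 and 1794 CPM (counts scaled to library size) and COL1A1 between 2684 and 3509 CPM in the 6 libraries, while COL1A2 lay between 0.978 and 2.14 CPM, and of the blood cell genes CD3E and HBB were at 0 and PTPRC lay between 0.763 and 1.76 CPM. These are bulk libraries of 1 cell line, in which a shift in the make-up of the culture and a change of RNA in each cell cannot be told apart.

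NMD is the cytoplasmic pathway that destroys mRNAs on which a ribosome stops well upstream of the last exon junction, because the protein complex left there at splicing then remains on the mRNA and is recognized by the UPF proteins. The kinase SMG1 phosphorylates UPF1, after which further SMG proteins bring in cleavage, deadenylation and decapping. Many genes of splicing regulators make such transcripts through a poison exon or a skipped exon, which lowers their own output. A transcript carries the NMD label from its structure alone, so that neither its level nor its decay is given by the label.

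The annotated stop codon lay at least 50 bases before the last exon junction in 99.9% of members, at a median of 361 bases (quartiles 174 and 845). The same held for 0.772% of the 64754 protein_coding transcripts with an annotated stop. Against the canonical transcript of the gene, which could be compared for 17865 members, 6879 (38.5%) held an extra internal exon, 5907 (33.1%) skipped at least 1 exon, 6375 (35.7%) used another splice site and 669 (3.74%) kept an intron, and a member could show more than 1 of these. In 5128 members (28.7%) the extra exon itself held the stop, the arrangement known as a poison exon. Many members share all their exons with coding transcripts. Of 17859 members in genes with protein_coding transcripts, 6298 had no base outside the exons of those transcripts, and 654 of these also had no exon junction of their own.

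**Figure D1:**
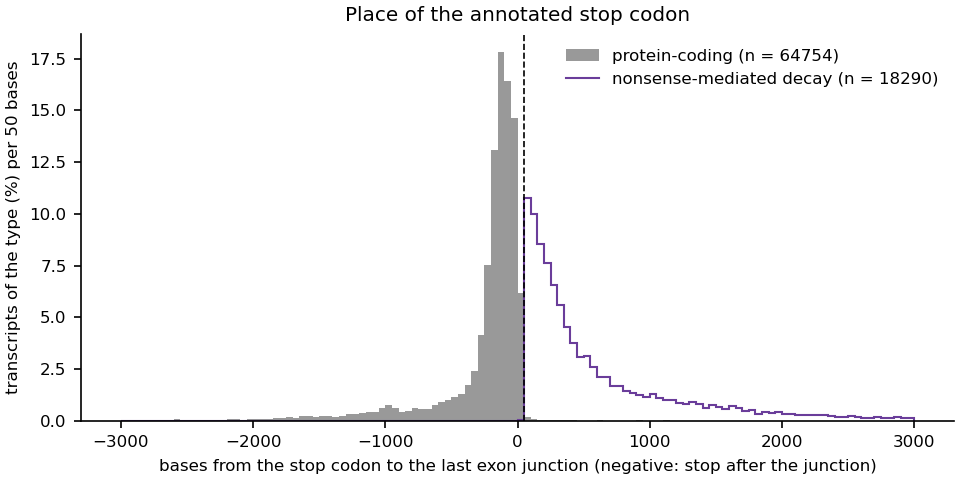
Bases from the annotated stop codon to the last exon junction (x axis) and percent of transcripts of each type per 50 bases (y axis), for 18290 NMD members with an annotated stop (line) and 64754 protein_coding transcripts (filled). The dashed line marks 50 bases, and 99.9% of members lie beyond it.

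The end of the coding sequence in members of the SR protein genes shows how such stops arise, and these were printed because SR proteins, which bind exonic enhancers and recruit the spliceosome, regulate themselves by this route. Sequences are from GENCODE release 44 on GRCh38, written 5′ to 3′ on the strand of the gene, up to 90 bases of the stop-bearing exon, with the premature stop codon in capitals. In SRSF6-202, SRSF7-204 and TRA2B-205 the stop lies in an extra exon, SRSF7-208 and SRSF10-215 keep an intron and reach the stop in sequence of their own, and SRSF1-206 reaches it in exon 1 by another splice site.
SRSF6-202 (chr20:43459215-43459304, plus strand): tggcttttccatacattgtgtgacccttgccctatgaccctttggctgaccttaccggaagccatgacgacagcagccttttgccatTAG
SRSF7-204 (chr2:38749319-38749346, minus strand): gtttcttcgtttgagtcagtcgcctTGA
TRA2B-205 (chr3:185931772-185931852, minus strand): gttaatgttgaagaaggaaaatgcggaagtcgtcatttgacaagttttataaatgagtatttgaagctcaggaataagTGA
SRSF7-208 (chr2:38749516-38749605, minus strand): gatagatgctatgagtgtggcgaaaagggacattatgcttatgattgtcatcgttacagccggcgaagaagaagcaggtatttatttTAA
SRSF10-215 (chr1:23978673-23978762, minus strand): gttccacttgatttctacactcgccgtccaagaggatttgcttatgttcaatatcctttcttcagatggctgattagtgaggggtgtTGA
SRSF1-206 (chr17:58006940-58007029, minus strand): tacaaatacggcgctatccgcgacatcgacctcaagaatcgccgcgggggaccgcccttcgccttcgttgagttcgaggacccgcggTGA

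Related splicing regulators carried members of like build, shown here because PTBP2-215 differed between the groups below. PTBP1 and PTBP2 encode polypyrimidine tract binding proteins, and PTBP1-207 and PTBP2-215 each skip an exon of 34 bases, which shifts the reading frame. Their stops are reached after 27 bases of the next exon in both genes, 21 of the 27 bases are identical, and both stops lie 361 bases before the last junction. TIA1 and TIAL1 encode RNA-binding proteins of stress granules, and in TIA1-210 and TIAL1-213 an extra exon reaches its stop after 37 bases, of which 25 are identical.
PTBP1-207 (chr19:808360-808386, plus strand): gcgtctacggtgacgtgcagcgcgTGA
PTBP2-215 (chr1:96806866-96806892, plus strand): gtgtttatggagatgtgcagcgtgTGA
TIA1-210 (chr2:70225357-70225393, minus strand): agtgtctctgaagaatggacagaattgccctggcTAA
TIAL1-213 (chr10:119580810-119580846, minus strand): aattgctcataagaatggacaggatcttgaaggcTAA

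The remaining sequences belong to 2 of the most abundant members, LRRK1-205 and PDIA3-202, and to 2 whose levels differed between the groups below, and in all 4 the stop lies in an extra exon.
LRRK1-205 (chr15:101067240-101067321, plus strand): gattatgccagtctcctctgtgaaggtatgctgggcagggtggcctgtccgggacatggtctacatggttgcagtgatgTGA
PDIA3-202 (chr15:43751584-43751632, plus strand): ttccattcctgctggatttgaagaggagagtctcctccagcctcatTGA
ATR-215 (chr3:142450573-142450602, minus strand): atggcaagttcttcaaattcatttaagTAA
SLC39A9-211 (chr14:69441832-69441905, plus strand): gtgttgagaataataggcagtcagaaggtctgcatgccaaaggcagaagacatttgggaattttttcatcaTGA

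Members took a small and rather steady share of each library. The untreated libraries, by replicate number, gave 4.73%, 4.69% and 5.11% of their estimated counts to members, and the IR libraries 4.68%, 4.58% and 4.12%. All IR libraries were below all untreated libraries, but IR replicate 1 and untreated replicate 2 were nearly level, and the extremes were IR replicate 3, the deepest library, and untreated replicate 3. The group means were 4.84% ± 0.234 and 4.46% ± 0.299 (SD, n = 3 each), a difference of -0.385 percentage points. Without IR replicate 3 the difference was -0.215, and without untreated replicate 3 it was -0.251. No test was made on this sum, and with 3 libraries against 3 the smallest two-sided p of an exact permutation test is 0.1.

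Other transcript types were read beside members, with no test. Retained intron transcripts held 4.72% ± 0.0847 of the counts in untreated libraries and 4.58% ± 0.0672 after IR (SD, n = 3 each), also lower after IR without overlap of the groups. Transcripts of coding genes with no defined coding sequence held 3.32% ± 0.0911 and 3.17% ± 0.200. Their groups overlapped, since only IR replicate 3 lay below the untreated range. The share of protein_coding transcripts was 85.3% ± 0.393 and 85.9% ± 0.700. Within the genes that make both classes, members held 11.4%, 11.3% and 12.2% of the NMD and protein_coding counts in untreated cells and 11.4%, 11.3% and 9.75% after IR, so that on this scale the groups overlapped. The groups did not overlap for the share of length-scaled counts (TPM, means 5.13% and 4.59%). Nor did they for members with at least 100 bases outside coding exons (means 1.45% and 1.30%). They overlapped with transcripts of equal length in both releases only, with the GC trend removed and with an effective length offset.

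**Figure D2:**
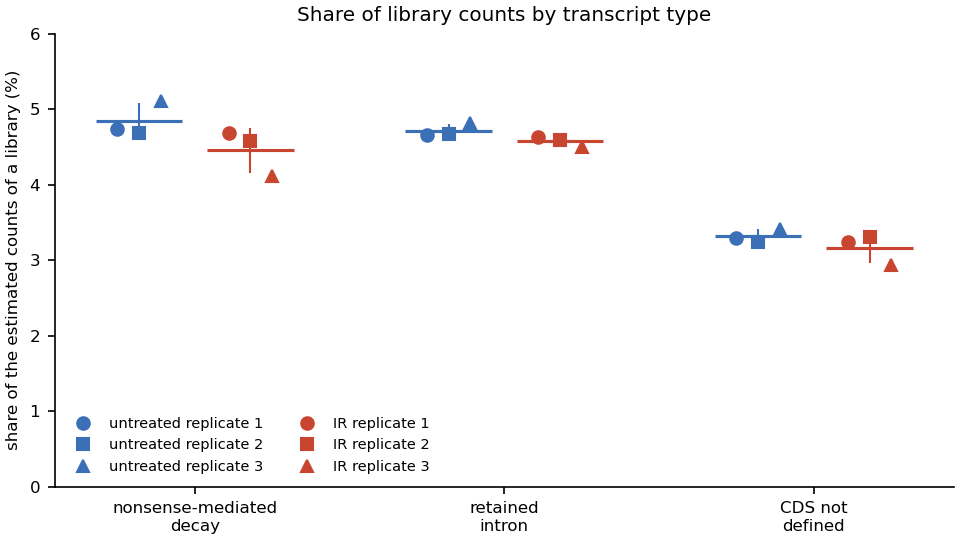
Share of the estimated counts of each library (%, y axis) held by 3 transcript types (x axis), with symbols for replicates, horizontal lines for group means and vertical lines for 1 SD (n = 3). The NMD share lies between 4.12% and 5.11%, and the lowest IR library is IR replicate 3.

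The signal came from few members. Of the 18300, 4278 were at 0 in every library, 4423 were above 0 in every library, and 6616 had a mean of at least 10 counts. Ranked by mean count, the 10 most abundant held 11.3% of all member counts, the 100 most abundant 30.3% and the 1000 most abundant 71.1%. A separate ranking by mean CPM gave the members named here. CPM is not scaled for transcript length and so gives no order of molecules. The 10 highest by CPM included HNRNPA2B1-203, LRRK1-205, PDIA3-202, CALR-204, PKM-222, CALR-208, CCN1-205, VCP-213 and HADHA-207. HNRNPA2B1-203, from the gene of an hnRNP protein, was at 1045, 998 and 1211 CPM in untreated cells and at 922, 934 and 742 CPM after IR, here and below in the order of the replicate numbers. All 3 IR values were lower, with a log2 change of -0.32 (adjusted p = 0.429 by edgeR, standard error, SE, 0.12). LRRK1-205, of a gene for a kinase, had 954, 1008 and 855 CPM in untreated cells and 1008, 1057 and 702 CPM after IR, which overlapped. PDIA3-202, of an oxidoreductase of the endoplasmic reticulum that helps glycoproteins fold, had 783, 802 and 889.5 CPM in untreated cells and 937, 957 and 794 CPM after IR. CCN1-205, of a secreted matrix protein, stood apart among the 10. It was at 264, 241 and 244 CPM in untreated cells and at 321, 389 and 395 CPM after IR, a log2 change of 0.56 (adjusted p = 0.161 by edgeR and 2.34e-05 by DESeq2, SE 0.10), and CCN1 as a whole gene rose by 0.59 (adjusted p = 3.08e-04 by edgeR).

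Levels of single members were compared between IR and untreated cells by the quasi-likelihood test of edgeR, fitted on all 56720 transcripts that passed a filter on low counts, of which 5875 were members. A member seen in only 1 group could pass this filter through that group. The test called 0 members and 0% of all transcripts at an adjusted p under 0.05, and at an unadjusted p under 0.05 it found 196 higher and 248 lower members, which is 7.56% of members beside 10.7% of all transcripts. The Wald test of DESeq2 called 92 members higher and 118 lower, 1.57% and 2.01% of members, where it called 2.55% and 2.74% of all transcripts. The likelihood ratio test of edgeR called 36 members higher and 49 lower, 0.613% and 0.834%, beside 0.603% and 0.656% of all transcripts. The groups did not overlap for 472 higher and 603 lower members, 8.03% and 10.3% of members, beside 11.1% and 11.5% of all transcripts. The shares of members lay below those of all transcripts by the unadjusted, DESeq2 and overlap counts, and slightly above them by the likelihood ratio test. Retained intron transcripts and those with no defined coding sequence gave 7.95% and 7.39% at an unadjusted p under 0.05, against 12.6% of protein_coding transcripts. DESeq2 called 1.25% and 1.52% of them higher and 1.82% and 1.78% lower, against 3.27% and 3.30% of protein_coding transcripts. Shares below those of all transcripts were thus not particular to members. The median log2 fold change was -0.05 over members and 0.00 over all transcripts, and it turned to 0.02 over members without the filter on low counts.

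The spread between replicates was wide for these estimates. The biological coefficient of variation from the common dispersion was 0.737 for transcripts and 0.0931 for whole genes. The median SD between replicates of a group, on the log2(CPM + 0.5) scale, was 0.69 for members with no base of their own, 0.65 for those with 1 to 99, 0.48 for those with at least 100, and 0.40 for protein_coding transcripts. In 21 members every untreated library had less than 1 count and every IR library at least 10, and in 24 the reverse held, 0.357% and 0.409% of members beside 0.330% and 0.324% of all transcripts. Of these 45 members, 21 had no base of their own.

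The 8 members of lowest unadjusted p among those with higher values after IR, no overlap and a mean of at least 20 counts were RBM6-202, HSP90B1-230, DICER1-215, SYNE2-219, PARP14-207, FBN1-204, FBXO22-207 and BAIAP2-209. All 8 were called by DESeq2 and none by edgeR's quasi-likelihood test, and 5 of them had less than 1 count in every untreated library. These 5 passed the filter on low counts through the IR libraries alone. All 8 were picked for low p and no overlap, so their fold bounds, p-values and separation follow from that choice. HSP90B1-230, of an endoplasmic reticulum chaperone, was at 1.2e-05, 0 and 0 CPM in untreated cells and at 72.7, 122 and 183 CPM after IR. Against a floor of 3 counts in each untreated library it was at least 846-fold higher (adjusted p = 0.142 by edgeR and 7.3e-24 by DESeq2). HSP90B1 as a whole gene had a log2 change of 0.06 (adjusted p = 0.572 by edgeR), or 0.18 (adjusted p = 0.0412 by edgeR) once an offset took out how each library varied with gene GC content.

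RBM6-202, of an RNA-binding protein, lacks 1588 bases of skipped exons and was listed at 0, 0.00632 and 0 CPM in untreated cells and at 7.43, 6.42 and 6.57 CPM after IR, at least 45.7-fold higher (adjusted p = 0.132 by edgeR). DICER1-215, of the ribonuclease that cuts microRNA precursors, was at 0, 0 and 0.0304 CPM and then at 10.3, 5.11 and 16 CPM, while DICER1 as a whole gene fell by 0.74 on the log2 scale (adjusted p = 8.87e-04 by edgeR). PARP14-207, of an ADP-ribosyltransferase, was at 0 in untreated cells and at 9.91, 9.85 and 20.5 CPM after IR. These members were absent or present by group, but DICER1-215, PARP14-207, RBM6-202 and HSP90B1-230 have no base outside the coding exons, so that in release 44 only 1 exon junction sets each apart from the protein_coding transcripts of its gene. In all, 6 of the 8 higher members have no base of their own, so this limit is not confined to the members named here. DICER1-215 and FBN1-204 have another length in the deposited files than in release 44, so that their printed structure may not be the one that was counted.

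Other members differed by degree. FBN1-204, of the microfibril protein fibrillin-1, was at 28.2, 24.3 and 26.8 CPM in untreated cells and at 47.2, 47.4 and 56.3 CPM after IR, a log2 change of 0.93 (adjusted p = 0.142 by edgeR and 1.03e-09 by DESeq2, SE 0.12). FBXO22-207, which skips 139 bases of a gene for a ubiquitin ligase subunit, was at 26.3, 27.7 and 29.4 CPM and then at 40.7, 43.2 and 44.6 CPM, a log2 change of 0.62 (adjusted p = 0.144 by edgeR and 1.62e-08 by DESeq2, SE 0.09). Both members were picked for low p and no overlap, so their narrow spreads and the separation of the groups follow from that choice.

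The members of lowest unadjusted p with lower values after IR included ATAD2-203, SLC39A9-211, BORA-207, CIRBP-228, RBMX-212, PTBP2-215 and HMGXB4-202, again all called by DESeq2 and none by edgeR's quasi-likelihood test. The 3 with less than 1 count in every IR library passed the filter through the untreated libraries alone. All 7 were picked for low p and no overlap, so their fold bounds, p-values and separation follow from that choice. ATAD2-203, of a bromodomain ATPase, was the most abundant of them, at 136, 128 and 135 CPM in untreated cells and 68.8, 58.1 and 71.6 CPM after IR, a log2 change of -1.0 (adjusted p = 0.132 by edgeR and 5.64e-18 by DESeq2, SE 0.10). The ATAD2 gene fell by 0.69 (adjusted p = 3.49e-04 by edgeR), in the same direction as the transcript. HMGXB4-202 went from 103, 108 and 105 CPM to 75.3, 68.2 and 75.4 CPM, and has, like BORA-207, neither a base nor a junction of its own, so its counts could have been split with coding transcripts.

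RBMX-212, of an hnRNP protein that binds chromatin and pre-mRNA, was at 22.2, 20.9 and 23.4 CPM in untreated cells and at 10.4, 11.3 and 9.03 CPM after IR, a log2 change of -1.11 (adjusted p = 0.142 by edgeR and 1.89e-10 by DESeq2, SE 0.15). It keeps an intron and has 1115 bases of its own, and RBMX as a gene had a log2 change of -0.15 (adjusted p = 0.0977 by edgeR). SLC39A9-211, of a zinc transporter, was at 7.51, 9.83 and 7.01 CPM in untreated cells and at 0 in the 3 IR libraries, at least 63.8-fold lower. PTBP2-215, whose stop codon is printed above, was at 1.86, 2.65 and 2.85 CPM and then at 0, at least 19.3-fold lower, and PTBP1-207, of like build, was at 14.1, 10.9 and 9.78 CPM in untreated cells and 11.3, 16.3 and 4.59 CPM after IR, which overlapped.

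**Figure D3:**
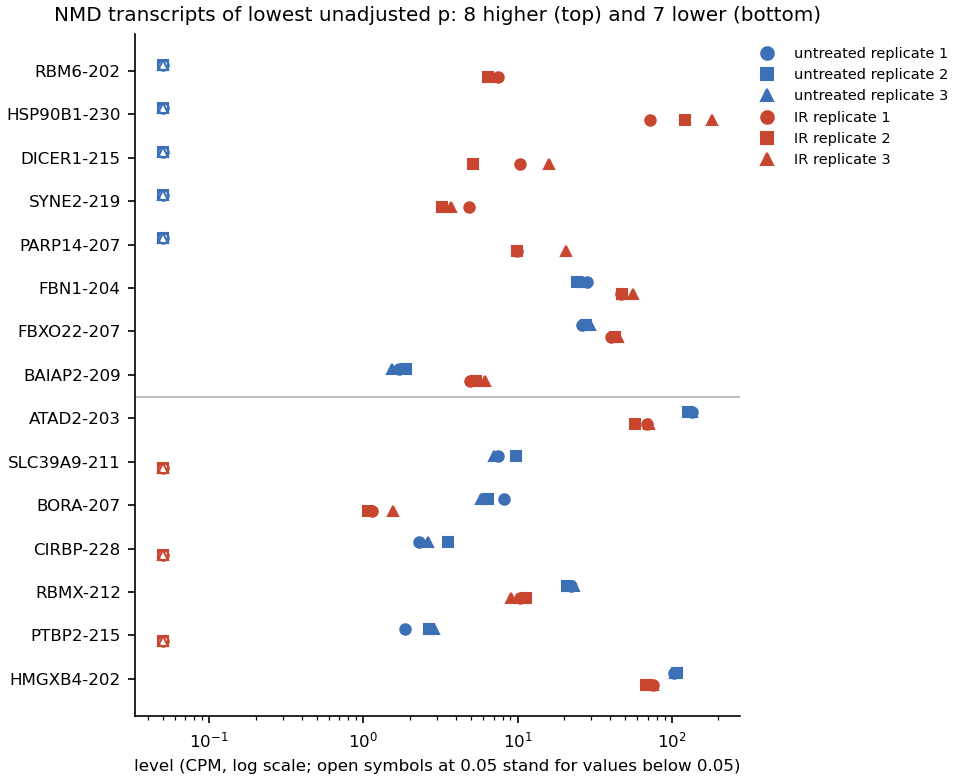
Level of 15 members in each library (CPM, logarithmic x axis) among those of lowest unadjusted p, 8 that were higher (upper) and 7 that were lower after IR (lower). Open symbols stand for values below 0.05 CPM, and 8 of the 15 members are at that edge in every library of 1 group.

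The share of members within their genes was the second comparison, since it takes out changes of the whole gene. For each gene, NMD counts were set against protein_coding counts in a model of edgeR over 22981 class pairs, where other pairs were retained introns, transcripts with no defined coding sequence, or minor protein_coding transcripts against the leading one. The 3931 genes with an NMD pair had a median NMD share between 10.4% and 11.5% in 5 libraries and of 8.94% in IR replicate 3. Members exceeded 50% of the counts in 397 to 510 genes of a library, and in 218 genes they did so in every library.

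The median log2 ratio of NMD to protein_coding counts lay furthest from the untreated mean in IR replicate 3. By replicate number it deviated by 0.00, 0.03 and 0.03 in untreated cells and by 0.00, -0.03 and -0.20 after IR. The medians of the fitted change were -0.14 for members, -0.14 for minor protein_coding transcripts, -0.17 for retained introns and -0.17 for transcripts with no defined coding sequence, against -0.15 over all pairs, and without IR replicate 3 the median for members was -0.05. The fitted median for NMD was thus close to those of the other minor classes, and no test was made between them. By library the classes were less alike. After IR, minor protein_coding transcripts deviated by -0.09, -0.14 and -0.18 and retained introns by -0.07, -0.10 and -0.24. Transcripts with no defined coding sequence deviated by -0.03, -0.05 and -0.30, mainly in IR replicate 3, as NMD did.

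**Figure D4:**
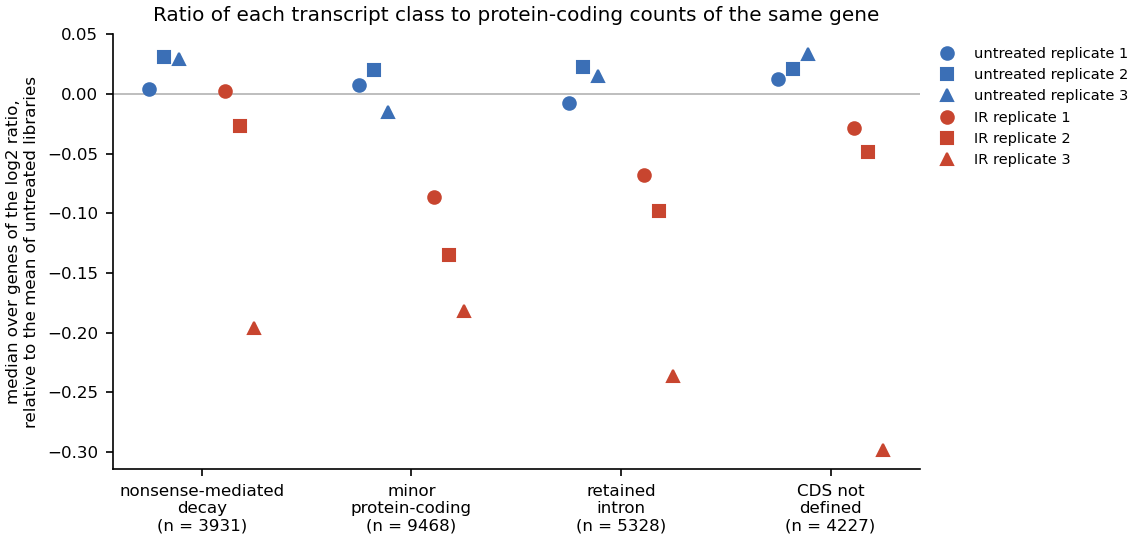
Median over genes of the log2 ratio of each class to the protein_coding counts of its gene, relative to the mean of the untreated libraries (y axis), for each library and 4 classes (x axis, n is the number of genes). The IR replicate 3 symbol is the lowest in all 4 classes, at -0.20 for NMD.

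The quasi-likelihood test called 0 NMD shares and 0% of all pairs, and at an unadjusted p under 0.05 it found 115 higher and 188 lower, 7.71% of NMD shares beside 7.67% of all pairs. The diffSpliceDGE test of edgeR called 20 NMD shares higher and 31 lower, 0.509% and 0.789%, where it called 0.431% and 0.844% of all pairs, and limma on log ratios called 2 higher and 2 lower, where it called 0.0305% and 0.0522% of all pairs. The groups did not overlap for 233 higher and 416 lower NMD shares, 5.93% and 10.6%, beside 5.72% and 11.8% of all pairs.

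The 8 genes of lowest unadjusted p with a higher NMD share after IR were IL6ST, HSP90B1, SYNE2, NUPR1, SP4, DUSP3, BAIAP2 and PRMT7. These genes and the 8 with a lower share below were picked for low p and no overlap, so their separation follows from that choice. In IL6ST, the gp130 receptor subunit of interleukin-6 signalling, members held 91.0%, 87.6% and 89.7% of the counts in untreated cells and all of them in the 3 IR libraries (adjusted p = 0.228 by edgeR, 0.00192 by limma). Its protein_coding transcripts were at 17.3, 24.2 and 18.8 CPM and then at 0. NMD counts of IL6ST went from 176, 171 and 163 CPM to 154, 135 and 123 CPM, so the share was higher although the NMD level was lower. In HSP90B1 the share was 1.37%, 1.04% and 0.802% in untreated cells and 7.46%, 12.3% and 20.6% after IR (adjusted p = 0.255 by edgeR). The log2 ratio change of HSP90B1 was 3.76, and 1.57 over its members with at least 100 own bases. BAIAP2, of an actin regulator, went from 2.28%, 2.46% and 2.07% to 5.77%, 6.28% and 5.62% (log2 ratio change 1.44, SE 0.23, adjusted p = 0.299 by edgeR). PRMT7, an arginine methyltransferase, went from 3.25%, 4.70% and 2.60% to 14.1%, 11.8% and 12.4%, with protein_coding levels of 17.3 to 20.9 CPM and 18.1 to 23.6 CPM.

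The 8 genes of lowest unadjusted p with a lower NMD share were LIN54, SLC39A9, PTBP2, PPP2R5D, BORA, MRTFB, MET and ANLN. In PTBP2, the share was 12.8%, 13.7% and 15.8% in untreated cells and 0.773%, 1.27% and 2.38% after IR (log2 ratio change -3.47, SE 0.48, adjusted p = 0.278 by edgeR and 0.00394 by diffSpliceDGE). Its protein_coding level was 18.2, 16.7 and 15.2 CPM and then 19.2, 20.1 and 17.5 CPM, whereas its NMD level was 2.67, 2.65 and 2.85 CPM and then 0.15, 0.258 and 0.428 CPM. BORA, the activator of Aurora A kinase, went from 27.0%, 22.6% and 18% to 4.66%, 4.18% and 6.96% (adjusted p = 0.299 by edgeR). LIN54, a DNA-binding subunit of the DREAM complex, went from 3.97%, 3.95% and 5.11% to 0 in the 3 IR libraries (adjusted p = 0.235 by edgeR, 0.0226 by limma).

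The machinery of NMD was read from whole genes, for which 15.5% of 14322 genes were higher and 14.5% lower at an adjusted p under 0.05 by edgeR. Of 17 NMD factor genes, 1 rose, 5 fell and 11 did not pass, with a median log2 fold change of -0.09 beside 0.01 over all genes. SMG1, the kinase of UPF1, was at 278, 296 and 256 CPM in untreated cells and at 188, 162 and 157 CPM after IR, and fell by 0.72 on the log2 scale (adjusted p = 6.13e-04 by edgeR, SE 0.08). UPF2, the bridge between UPF1 and the junction complex, fell from 107, 107 and 114 CPM to 91.0, 85.9 and 68.7 CPM (log2 fold change -0.42, adjusted p = 0.0107 by edgeR). PNRC2 and NBAS fell by 0.31 and 0.21. UPF1 itself was at 78.3, 81.3 and 80.9 CPM and then at 72.2, 74.1 and 92.5 CPM (log2 fold change -0.01, adjusted p = 0.971 by edgeR). DHX34, a helicase of the pathway, rose by 0.26 (adjusted p = 0.0197 by edgeR), but with the GC offset its log2 change was -0.04. With that offset, 0 NMD factor genes were higher and 6 lower, among them SMG1, UPF2, UPF1, SMG9 and SMG5, with SMG1 at -0.62 and UPF1 at -0.26, so that the calls for SMG1 and UPF2 held under both scalings while those for PNRC2 and NBAS did not. Without untreated replicate 1 the calls for PNRC2, NBAS and DHX34 were among those lost, leaving 0 higher and 2 lower, SMG1 and UPF2. Leaving out untreated replicate 2 gave 3 lower and lost NBAS, and leaving out untreated replicate 3 lost PNRC2, NBAS and DHX34. The share of all genes called with the GC offset or without single libraries is not given here. These counts therefore have no background to be read against.

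Of 7 genes of the exon junction complex, CASC3 fell by 0.36 (adjusted p = 0.00423 by edgeR, SE 0.07) and 6 did not pass. The NMD factor genes themselves have 13 members in 9 genes, of which 5 were tested and none was called by edgeR or DESeq2. The quasi-likelihood test called 0% of all transcripts, and DESeq2 called 2.55% higher and 2.74% lower, so 0 of 5 says little. DHX34-202, with a poison exon, was at 4.15, 4.94 and 3.98 CPM in untreated cells and 7.99, 6.79 and 6.36 CPM after IR, without overlap (adjusted p = 0.372 by edgeR, 0.0534 by DESeq2). Since SMG1, SMG5, UPF1 and UPF2 levels were those of RNA, the activity of the pathway was not measured.

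All 14 SR protein genes had members, 28 in number. Of the 16 tested, edgeR's quasi-likelihood test called 0, and DESeq2 0 higher and 3 lower, which were SRSF1-206, SRSF7-208 and SRSF10-215, where it called 2.55% and 2.74% of all transcripts. SRSF1-206 was at 21.6, 20.9 and 18.8 CPM in untreated cells and at 8.09, 4.69 and 5.37 CPM after IR, a log2 change of -1.76 (adjusted p = 0.143 by edgeR and 1.6e-08 by DESeq2, SE 0.25). SRSF1-207, another member of that gene, was at 46.1, 46.4 and 41.3 CPM and then at 39.3, 33.8 and 39.8 CPM, a smaller shift, and SRSF1 as a gene fell by 0.29 (adjusted p = 0.00748 by edgeR). The NMD share of SRSF1 was 13%, 13.2% and 11.5% in untreated cells and 10.8%, 9.08% and 10.3% after IR, without overlap.

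SRSF7 gave members of opposite sign. SRSF7-208, with the retained intron, was at 57.0, 53.3 and 65.3 CPM in untreated cells and at 39.9, 36.6 and 35.2 CPM after IR, a log2 change of -0.65 (adjusted p = 0.158 by edgeR and 2.15e-05 by DESeq2, SE 0.11). SRSF7-204, with the poison exon, was at 12.2, 15.7 and 6.31 CPM and then at 28.8, 25.7 and 22.2 CPM, a log2 change of 1.16 (adjusted p = 0.344 by edgeR and 0.0511 by DESeq2, SE 0.35). Neither pair of groups overlapped, and the NMD share of SRSF7 as a whole was 37.2% ± 1.92 in untreated cells and 38% ± 5.53 after IR (SD, n = 3 each). TRA2B-205, with a well-known poison exon, was at 68.9, 64.1 and 49.8 CPM and then at 57.1, 61.2 and 85.6 CPM, which overlapped.

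Of 34 genes of hnRNP proteins and other splicing regulators, 27 had members, 144 in number, and of the 65 tested DESeq2 called 0 higher and 3 lower, namely PTBP2-215, HNRNPU-208 and HNRNPU-224, again beside 2.55% and 2.74% of all transcripts. HNRNPU-224 was at 233, 217 and 224 CPM in untreated cells and at 189, 185 and 194 CPM after IR, a log2 change of -0.25, near the -0.28 of the HNRNPU gene (adjusted p = 0.0143 by edgeR). The median log2 fold change over the tested members was 0.05 in this list and 0.06 in the SR list, beside -0.05 over all members tested. By whole gene, 4 of 13 SR protein genes and 8 of 34 of the other regulators fell and 0 rose, beside 14.5% and 15.5% of all genes. With the GC offset 3 and 6 fell, again with no share of all genes under that offset beside them. CLK1, HNRNPC, TARDBP, HNRNPR and HNRNPH1 lost their calls while other genes of the list gained one. The calls for SRSF4 and SRSF11 were lost without untreated replicate 1 or 2, and that for SRSF11 also without 3 other single libraries.

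**Figure D5:**
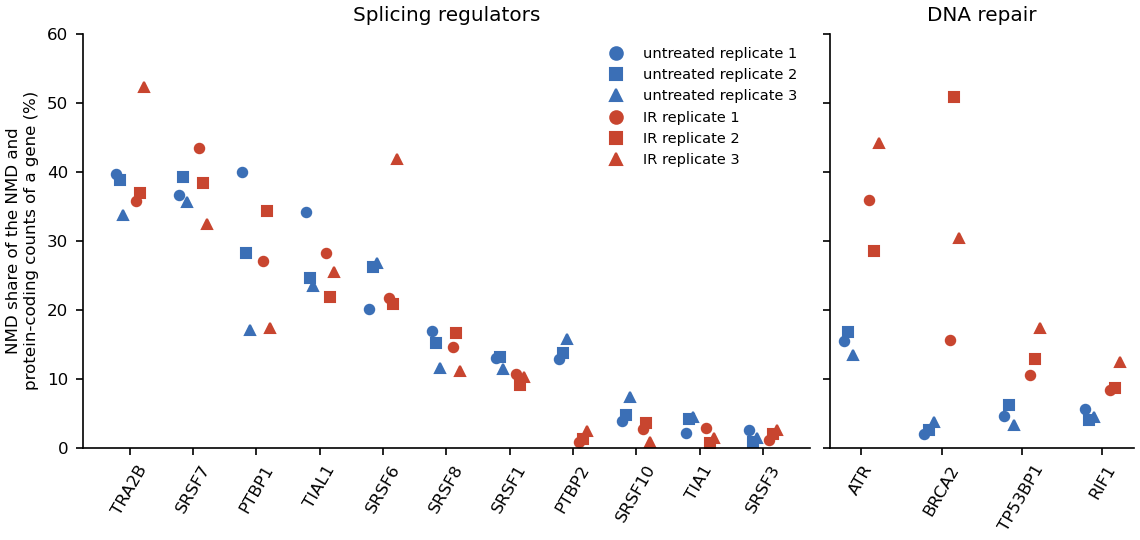
NMD share of the NMD and protein_coding counts of each gene in each library (%, y axis), for 11 splicing regulators (left) and 4 DNA repair genes (right). The groups do not overlap for SRSF1, PTBP2 and SRSF10 on the left. The 4 genes on the right are those without overlap among the 21 repair genes tested, so their separation follows from that choice. The 3 IR libraries of ATR lie between 28.6% and 44.2%.

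Of 26 DNA repair genes, 1 rose and 15 fell as whole genes, beside 15.5% and 14.5% of all genes. With the GC offset 3 rose and 12 fell, with no share of all genes under that offset beside them. Members were found in 22 of them, and of the 44 members tested 5 were higher and 6 lower without overlap, beside 11.1% and 11.5% of all transcripts. DESeq2 called 3 of the 44 higher and 0 lower, where it called 2.55% and 2.74% of all transcripts. The quasi-likelihood test of edgeR called 0 of the 44 and 0% of all transcripts. The NMD share could be tested in 21 genes, of which 4 were higher and 0 lower without overlap of the groups, ATR, BRCA2, TP53BP1 and RIF1, against 5.72% and 11.8% of all pairs, and 0 passed the quasi-likelihood test. In ATR, the kinase that responds to stalled forks, the NMD share was 15.5%, 16.8% and 13.4% in untreated cells and 35.9%, 28.6% and 44.2% after IR (log2 ratio change 1.65, SE 0.35, adjusted p = 0.443 by edgeR and 0.021 by diffSpliceDGE). The poison exon member ATR-215 was at 6.87, 6.87 and 6.46 CPM and then at 12.1, 9.0 and 13 CPM (adjusted p = 0.301 by edgeR and 0.0165 by DESeq2), while protein_coding transcripts of ATR went from 37.9, 39.0 and 42.3 CPM to 23.6, 24.6 and 18.3 CPM. ATR as a gene fell by 0.33 (adjusted p = 0.00875 by edgeR), a call lost with the GC offset, where the log2 change was -0.16 (adjusted p = 0.0954 by edgeR). The genes BRCA2 and RIF1 fell by 0.80 and 0.73, and by 0.58 and 0.54 with the offset.

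In BRCA2, which acts in homologous recombination, the share was 2.0%, 2.57% and 3.70% in untreated cells and 15.6%, 50.8% and 30.4% after IR (adjusted p = 0.332 by edgeR and 0.02 by diffSpliceDGE). BRCA2-208, with a poison exon in release 44 but another length in the deposited files, was at 0.568, 0.505 and 0.718 CPM and then at 3.44, 2.60 and 1.68 CPM, and BRCA2-207 was at 0 in untreated cells and at 2.37, 15.7 and 8.76 CPM after IR. TP53BP1, which binds chromatin beside breaks, had a share of 4.67%, 6.21% and 3.24% and then of 10.5%, 12.8% and 17.4%. For RIF1, its partner, the share was 5.59%, 3.96% and 4.39% and then 8.33%, 8.62% and 12.4%, with NMD levels of 8.03, 5.68 and 6.62 CPM and of 8.46, 7.38 and 10.1 CPM that overlapped, while its protein_coding level went from 136, 138 and 144 CPM to 93.1, 78.3 and 71.2 CPM. The median log2 ratio change over the 21 repair genes was -0.06 beside -0.14 over all NMD shares, and the median log2 fold change of their 44 tested members was -0.33.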

How the data were processed

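RNA-seq of 3 untreated and 3 irradiated U-2 OS libraries was used, grouped by the sample labels. The authors trimmed reads with fastp and assigned them with kallisto against GENCODE release 37 (GRCh38). The authors deposited estimated counts per transcript without normalization. TPM values, which the authors had divided by effective length and library total, served only as an alternative. Identifiers were matched to GENCODE release 44, which gave types, exons and stop codons. The 2580 of 161171 transcripts without a match, with 1.56% to 1.83% of the counts, were left out. A type could differ between the releases.

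Estimated counts were rounded, filtered by filterByExpr and tested with glmQLFTest after glmQLFit and TMM scaling (edgeR 4.0.16, limma 3.58.1, DESeq2 1.42.0, R 4.3.3, Python 3.11.15), with Benjamini–Hochberg adjustment over all transcripts, pairs or genes at a threshold of 0.05. CPM values use TMM-scaled library sizes. Standard errors are the absolute log2 change over the square root of F. For shares within genes, NMD and protein_coding counts of each library entered 1 model with a term for the library, and pairs needed a mean of at least 10 counts in each class. Ratios per library used a pseudocount of 0.5. Bounds against groups under 1 count used a floor of 3 counts per library. The scripts were tested on simulated counts. The kallisto version is not given in the sources used here.

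Members and lists were chosen with earlier results of these data known. Named members are the 10 most abundant, the 8 of lowest p in each direction without overlap for levels (mean of at least 20 counts) and for shares, and members of the gene lists. The rule asked for called members, and since none was called the lowest unadjusted p were taken, which was chosen after the values were seen. Some members, genes and sequences that these rules select are not reported here. Likewise CPM of sister transcripts and sequences were picked with values in view. Depth was 18573309 to 45308792 estimated counts. Transcript estimates rest on reads that sister transcripts share, so that near-identical transcripts are uncertain. Replicates differed beyond sampling noise, with a chi-square per gene of 29.0 and 32.1 in the pairs with IR replicate 3 and of 3.44 to 9.13 in the other pairs. The file of IR replicate 3 is named with a mark that the others lack and that may stand for a repeat, which no source explains. Alternatives were the filter, size factors, other tests, a replicate block, GC content, effective length, the reference class, transcripts of equal length in both releases, and leaving out each library.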

Additional observations from a re-analysis of the deposited data

How the results depend on the processing

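The count of 0 called members stayed 0 in either direction without a filter, with at least 10 counts in every library, with DESeq2's size factors, with the GC trend removed, with an effective length offset and with each library left out (range 0 to 0). The Wald test of DESeq2 called 92 higher and 118 lower, and the likelihood ratio test of edgeR, added after seeing the data, 36 higher and 49 lower. For NMD shares the count was likewise 0 (range 0 to 0 without single libraries), against 2 and 2 by limma and 20 and 31 by diffSpliceDGE. The median log2 change of members was -0.05, from -0.09 to -0.03 with single libraries left out, and 0.0189 without a filter. The median change of the log2 ratio was -0.14, from -0.17 to -0.05 with single libraries left out, the last being without IR replicate 3. The difference in the NMD share of library counts was -0.385 percentage points, from -0.496 to -0.215 with single libraries left out. Within genes with both classes it was -0.811, but there the share was of NMD and protein_coding counts only. That share was 11.6% and 10.8% by group, against 4.84% and 4.46% of library counts, so the 2 differences are not on 1 scale.

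Of the NMD factor genes, 2 were higher with at least 10 counts in every library and by DESeq2, 0 with the GC trend removed (added after seeing the data), and 0 to 2 were higher and 2 to 5 lower with single libraries left out. The share of all genes called under these alternatives is not given beside them. LRRK1-205 turned from -0.03 to 0.00173 without a filter and 0.0063 with the length offset, and ranged from -0.131 to 0.142 with single libraries left out. CALR-208 ranged from -0.431 to 0.0928 and turned without IR replicate 3. The NMD share of HNRNPA2B1 turned to 0.0692 over members with at least 100 own bases, and the DHX34 gene to -0.0391 with the GC trend removed. Among named shares, the log2 ratio change of IL6ST was 3.17 with all other transcripts as reference instead of 11.53, that of SLC39A9 was -10.46 over members with at least 100 own bases instead of -2.05, and that of BRCA2 was 11.80 over transcripts of equal length instead of 3.98. The cause was not tested. Of 1317 values of single transcripts, shares and genes under the alternatives, 1225 kept their direction and their side of the threshold. For members and NMD shares this says little about the threshold, since the main fits and most alternatives called 0 of them. Many were also picked for low p and no overlap.

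The replicate numbers did not pair the libraries, since deviations of libraries of the same number correlated at -0.01, 0.02 and -0.05. With the replicate number as a block, 0 members and 0 NMD shares were called, the medians were -0.04 and -0.13, and 1 NMD factor gene was higher and 4 lower, the calls for NBAS and SRSF11 being lost (adjusted p = 0.093 and 0.102 by edgeR). Members near the floor of 3 counts, and those without own bases, are limited by depth and by shared reads.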

Other observations

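Members of genes induced by stress were followed as a group. Of 10 genes whose mRNAs are known NMD targets, 3 rose as whole genes, GADD45A by 0.80, ATF3 by 0.76 and UPP1 by 0.47 on the log2 scale, GADD45B fell by 0.34, and 6 did not pass the edgeR test. By that test 15.5% of all genes were higher and 14.5% lower, and DESeq2 called 2.55% of all transcripts higher. UPP1-205, of uridine phosphorylase, was at 12.7, 11.2 and 10.1 CPM in untreated cells and at 15.4, 18 and 19.9 CPM after IR, and was the only one of 9 tested members in this list called by DESeq2 (adjusted p = 0.0136, against 0.291 by edgeR). The NMD share of UPP1 overlapped between the groups.

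All 27 tested p53 target genes rose as whole genes, beside 15.5% of all genes, with a median log2 fold change of 0.71. Their 13 tested members had a median of 0.47. DESeq2 called 0 of the 13, where it called 2.55% of all transcripts higher and 2.74% lower. The quasi-likelihood test of edgeR called 0 of the 13 and 0% of all transcripts. With so few members and this wide spread of transcript estimates, these counts cannot show whether members followed their genes. The groups did not overlap for 3 higher members and 1 lower member, beside 11.1% and 11.5% of all transcripts. The higher ones were BAX-211, at 18.2, 17.1 and 15.1 CPM in untreated cells and 22.8, 28.3 and 19 CPM after IR, BAX-204, at 0.122, 0.669 and 0.376 CPM and then 1.25, 1.05 and 1.93 CPM, and FDXR-218, at 0, 0.455 and 0.292 CPM and then 0.587, 2.28 and 2.18 CPM, with adjusted p from 0.452 to 0.508 by edgeR. The lower one, MDM2-213, with a poison exon, was at 0.892, 0.693 and 1.19 CPM in untreated cells and at 0, 0.389 and 0.201 CPM after IR, without overlap (adjusted p = 0.562 by edgeR), while MDM2 rose by 0.60 as a gene (adjusted p = 2.90e-04 by edgeR). Of 20 genes of the G2 and M phases, 16 fell and 0 rose, beside 14.5% and 15.5% of all genes. Of 6 tested members 0 were called by edgeR or DESeq2, too few to set against the share of all transcripts called. BUB1 was the only gene of that list whose NMD share did not overlap between groups, at 1.14%, 2.53% and 2.07% in untreated cells and 4.06%, 3.66% and 6.29% after IR. CLK1-204, of a kinase of SR proteins, skips 91 bases and was at 9.30, 7.57 and 5.08 CPM and then at 19.6, 16.3 and 11.1 CPM (adjusted p = 0.333 by edgeR, 0.0532 by DESeq2), while CLK1 fell by 0.36 as a gene (adjusted p = 0.0103 by edgeR), a call lost with the GC trend removed, where the log2 change was -0.16 (adjusted p = 0.0809 by edgeR). ATM-212 was at 5.29, 6.56 and 5.33 CPM in untreated cells and at 0.56, 0 and 0 CPM after IR (adjusted p = 0.384 by edgeR).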
